A study of Rattus norvegicus with 25 samples.

Results

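Dopamine signalling was followed through 9 genes: the receptors Drd1, Drd2 and Drd3, the synthesis enzymes Th and Ddc, the transporters Slc6a3 and Slc18a2, and the monoamine oxidases Maoa and Maob. They were taken by symbol from a table of read counts over 28909 genes, and all 9 were found there. RNA came from the striatum on the lesioned side of 25 female Sprague Dawley rats, all of which carried a 6-OHDA lesion, that is, an injection of the toxin 6-hydroxydopamine that destroys dopamine neurons. After randomisation, 5 rats received levodopa alone (6 mg/kg once a day), 10 received that levodopa with trapidil at 7.5 mg/kg and 10 received it with trapidil at 15 mg/kg, trapidil being given 2 times a day. Dosing ran for 14 days and tissue was taken on day 15, around 1 hour from dosing, the labels not saying before or after. The series title also names benserazide, an inhibitor of levodopa conversion outside the brain, which the arm descriptions do not mention. The labels give neither the age of the rats, nor the site of the injection, nor how complete each lesion was. No unlesioned or levodopa-free tissue was analysed here, so every comparison below is between lesioned rats that all had levodopa.

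Dopamine is made from tyrosine by the successive action of Th, tyrosine hydroxylase, which makes levodopa, and Ddc, the aromatic amino acid decarboxylase, which turns levodopa into dopamine. Slc18a2, the vesicular monoamine transporter, loads dopamine into vesicles, Slc6a3, the dopamine transporter, takes it back up at the terminal, and the monoamine oxidases break it down. In the striatum the terminals belong to midbrain neurons whose cell bodies, and most of whose RNA, lie outside the tissue, whereas the receptors are made by local cells: Drd1 mostly by spiny projection neurons of the direct pathway and Drd2 by those of the indirect pathway. Dopamine receptors act through cyclic AMP, which Drd1 raises and Drd2 and Drd3 lower.

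Because cyclic AMP acts on genes through the cyclic AMP response element (CRE), and Fos and Jun proteins through the AP-1 motif, the promoters of the 9 genes were searched for both. RefSeq (assembly GRCr8) gave 11 windows of 250 bases before a start for these 9 genes. The letters TGACGTCA (CRE) and TGANTCA (AP-1) were searched on both strands, and no match of one overlapped a match of the other. The 4 matches are shown in 30 bases each, in the direction of the gene, with the motif in capitals.
Slc18a2, CRE: agtgctatccgTGACGTCAgagccggactg
Th, CRE: cagaggggcttTGACGTCAgcctggccttt
Th, AP-1: cgggctgagggTGATTCAgaggcaggtgcc
Ddc, AP-1: atggcttgttgTGAATCAgtctcactgggt
The Slc18a2 match began 52 bases before the start, on the plus strand at chr1:268399958-268399987. The Th matches, on the minus strand, began 69 bases (CRE, chr1:207508269-207508298) and 230 bases (AP-1, chr1:207508430-207508459) before the start. The Ddc match, at chr14:90682928-90682957 on the minus strand, began 163 bases before the start in 1 of 3 Ddc windows. A CRE match stood in 531 of 33469 rat windows (1.59%) and an AP-1 match in 2122 of them (6.34%). A match describes letters in a window and is no evidence of binding, and no window of the other 6 genes held either set of letters. The counts rest on another build, Rnor_6.0, so these positions serve only to show the sequence.

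Library totals ran from 16535828 to 19274429 reads in the levodopa arm, 10838513 to 18794463 at 7.5 mg/kg and 13862132 to 20532290 at 15 mg/kg. Levels are given as CPM, reads scaled to a common library total with TMM factors. A floor of 3 reads was worth between 0.147 and 0.275 CPM. Levodopa replicate 2 stood apart: it had the highest summed level of the astrocyte (5917 CPM), endothelial (812 CPM), pericyte (269.5 CPM) and oligodendrocyte (19029 CPM) marker lists of all libraries, and the lowest of the direct pathway neuron list (462 CPM). The 7.5 mg/kg replicate 1 was the shallowest library and had the highest summed level of cortical neuron markers (58.7 CPM, against a median of 7.52 over all libraries). Levodopa replicate 5 (46.4 CPM) and the 7.5 mg/kg replicate 6 (37.5 CPM) also stood far above that median. The highest 15 mg/kg library was at 9.49 CPM. In bulk tissue, fewer cells of a type and less RNA per cell cannot be told apart.

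Of the 9 genes 8 were deep enough to test, and none of these passed in any comparison. The test used throughout was edgeR's quasi-likelihood test over 14142 genes, with Benjamini-Hochberg adjustment and a threshold of 0.05. At 7.5 mg/kg against levodopa, 0 of the 8 genes deep enough to test passed, in a comparison in which 0.0283% of all genes passed. At 15 mg/kg 0 of 8 passed against a background of 1.31%, between the doses 0 of 8 against 0.0283%, and for both doses together against levodopa 0 of 8 against 0.806%. At an unadjusted p under 0.05 the count was 1, 1, 0 and 1 of 8, each time Ddc, beside 11.7%, 19.5%, 3.63% and 18.1% of all genes. DESeq2 called 0, 0, 0 and 1 of them (Ddc, both doses together), beside 0.382%, 4.43%, 0.0424% and 3.01% of all genes. It gave no adjusted p for Drd3 and Th at 7.5 mg/kg, nor for Drd3 for both doses together, so these could not be called there. Its shares are of all 14142 genes, those without an adjusted p included. Limma-voom called 0 in all 4, beside 0.721%, 5.06%, 0.0919% and 3.98%. The ranges of the arms overlapped for every tested member in every pair of arms. Ranges did not overlap for 0.0919% of all tested genes at 7.5 mg/kg, 0.707% at 15 mg/kg and 0% between the doses.

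**Figure D1:**
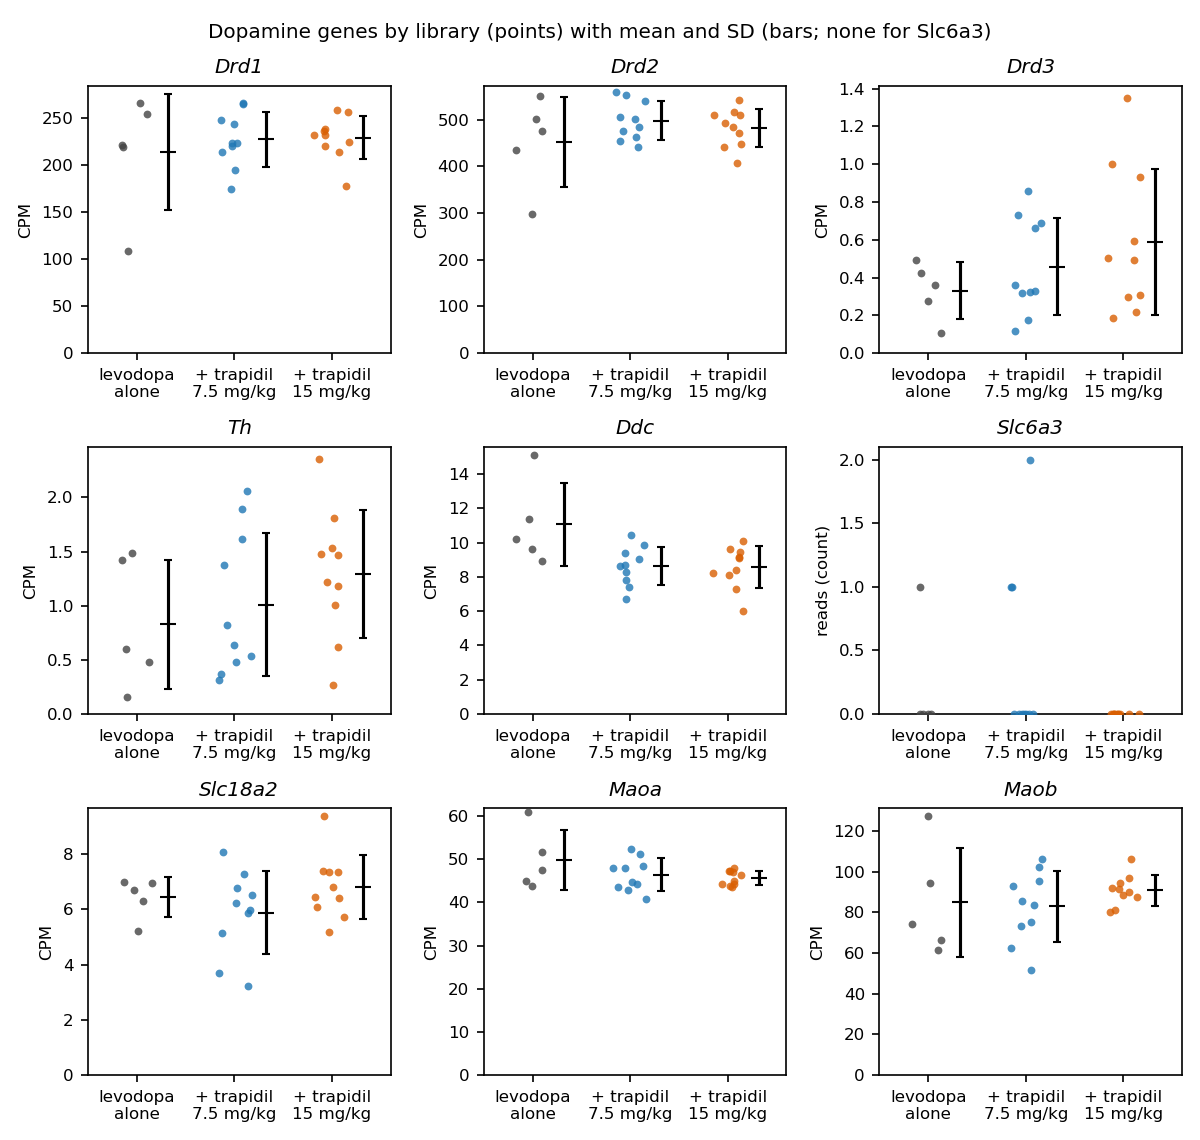
Level of each of the 9 genes in each library, in CPM on the vertical axis (read counts for Slc6a3), by arm on the horizontal axis. Points are libraries and bars the mean and SD, with none for Slc6a3; the arms overlap for all 9 genes, and the Ddc points with trapidil (6.02 to 10.5 CPM) all lie under the levodopa mean of 11.1 CPM.

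Drd1 and Drd2, the receptors of the projection neurons, were the most deeply read members, with at least 1762 and 4844 reads in each library. The Drd1 level in the 5 levodopa rats was 221, 109, 254, 265 and 219 CPM. With trapidil the lowest, median and highest levels of Drd1 were 174, 223 and 265 CPM (7.5 mg/kg) and 178, 231 and 258 CPM (15 mg/kg). The 109 CPM of levodopa replicate 2 was the lowest of all 25 libraries, and the other 4 levodopa rats lay within the spread of the trapidil rats. The arm means of Drd1 were 213 ± 61.9 (SD, n = 5), 227 ± 29.1 (SD, n = 10) and 229 ± 22.8 CPM (SD, n = 10). The log2 fold change of Drd1 was 0.09 ± 0.13 (SE) at 7.5 mg/kg (edgeR adjusted p = 0.813) and 0.10 ± 0.13 at 15 mg/kg (adjusted p = 0.722). Their 95% intervals ran from -0.18 to 0.36 and from -0.17 to 0.37, so that a change in either direction of the size of these bounds was not resolved. Without levodopa replicate 2 the fold changes of Drd1 turned to -0.08 and -0.07.

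Drd2 was at 502, 299, 476, 436 and 551 CPM in the levodopa rats. Its lowest, median and highest levels were 443, 493 and 559 CPM (7.5 mg/kg) and 408, 489 and 542 CPM (15 mg/kg). Again levodopa replicate 2 was the lowest of all libraries, and the arms overlapped across the rest of their range. The log2 fold change of Drd2 was 0.14 ± 0.09 (SE, interval -0.05 to 0.33, edgeR adjusted p = 0.569) at 7.5 mg/kg. The Drd2 value at 15 mg/kg was 0.09 ± 0.09 (interval -0.10 to 0.28, adjusted p = 0.620), and without levodopa replicate 2 the values were 0.02 and -0.02. Drd2 was also the steadier receptor between animals, with a coefficient of variation of 11.5% over all libraries against 15.3% for Drd1, a difference that was not tested.

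The balance of the receptors was read from the log2 ratio of Drd1 to Drd2 reads in each library, which needs no library scaling but depends on the lengths of both transcripts. It was -1.12 ± 0.30 (SD, n = 5) with levodopa, -1.14 ± 0.21 (n = 10) at 7.5 mg/kg and -1.08 ± 0.13 (n = 10) at 15 mg/kg. In exact permutation tests the ratio differed from levodopa by -0.02 at 7.5 mg/kg (two-sided p = 0.876) and by 0.04 at 15 mg/kg (p = 0.730). The doses differed by 0.06 (permutation test with 100000 resamples, p = 0.451), and the adjusted p was 0.876 for all 3, over the 6 ratio tests made. The arms overlapped in this ratio, and the SD within each arm exceeded each of these differences.

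Drd3, a receptor found mainly in the ventral striatum, gave only 2 to 25 reads per library. The levodopa rats had 5, 8, 6, 8 and 2 Drd3 reads. With 7.5 mg/kg they ranged from 2 to 15 with a median of 6 reads, and at 15 mg/kg from 3 to 25 with a median of 10 reads. The highest 15 mg/kg library, replicate 6, lay well above the levodopa rats, while the lowest lay inside their range. No levodopa library reached 10 Drd3 reads, whereas 3 libraries at 7.5 mg/kg and 6 at 15 mg/kg did. Drd3 thus passed the filter on low counts through the trapidil libraries, and its fold against levodopa is given as a description from which nothing is read. Arm means of Drd3 were 0.331 ± 0.149 (SD, n = 5), 0.456 ± 0.257 (n = 10) and 0.588 ± 0.388 CPM (n = 10). On the log2 scale Drd3 differed from levodopa by 0.45 ± 0.48 (SE, edgeR adjusted p = 0.734) at 7.5 mg/kg and 0.83 ± 0.47 (adjusted p = 0.334) at 15 mg/kg. The interval at 15 mg/kg, -0.13 to 1.79, reaches from near no change to a 3.45-fold higher level. At this depth the data resolve neither. With 1 library left out at a time, the lower-dose value of Drd3 ran from 0.22 (without levodopa replicate 5) to 0.62 (without levodopa replicate 2). The higher-dose value ran from 0.60 to 1.01, without the same libraries.

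The arm-centred Drd3 level, that is, log2 CPM minus the mean of its arm, went with the ciliated ependymal marker list over the 25 libraries (r = 0.63, rho = 0.63). It did so within both arms of 10 (r = 0.64 and 0.76). Of the 8 ependymal markers 7 were matched in the table, all were detected, and their summed level ran from 10.3 to 90.4 CPM with levodopa, 13.4 to 119 CPM (7.5 mg/kg) and 35.8 to 103 CPM (15 mg/kg). None of these 7 passed the test at 15 mg/kg, beside 1.31% of all genes, and 4 of 7 were higher at an unadjusted p under 0.05, beside 19.5% of all genes in either direction. All 7 had positive fold changes, with a median of 1.09 on the log2 scale. The part of these cells, or of the tissue near the ventricle, in the Drd3 level was not tested.

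Th, the first and rate-limiting enzyme of dopamine synthesis, was near the limit of detection. Its reads in the levodopa rats were 27, 23, 10, 3 and 9. At 7.5 mg/kg they ran from 4 to 33 with a median of 13 reads, and at 15 mg/kg from 5 to 47 with a median of 24.5 reads. High and low rats were found in every arm, and the arms overlapped over most of their range. Th reached 10 reads in 18 of 25 libraries, but not in the levodopa rats with 3 and 9 reads. It thus passed the filter on low counts only with the trapidil libraries, and its fold against levodopa is given as a description. The mean Th level was 0.828 ± 0.593 (SD, n = 5), 1.01 ± 0.663 (n = 10) and 1.29 ± 0.589 CPM (n = 10). Against levodopa Th had a log2 fold change of 0.31 ± 0.47 (SE, interval -0.66 to 1.28, edgeR adjusted p = 0.822) at 7.5 mg/kg. The Th value at 15 mg/kg was 0.66 ± 0.47 (interval -0.30 to 1.61, adjusted p = 0.456). Leaving out 1 library at a time moved the Th values widely: from 0.039 (without levodopa replicate 4) to 0.64 (without levodopa replicate 1) at the lower dose, and from 0.39 to 0.99 at the higher dose, without the same libraries. Among the 8 tested genes Th and Drd3 had the largest coefficients of variation over all libraries, 57.3% and 63.6%.

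Ddc, the enzyme that makes dopamine from the levodopa all these rats were given, was the member with the smallest p against levodopa. Its level in the levodopa rats was 9.64, 15.1, 8.95, 11.4 and 10.2 CPM, from 150 to 245 reads each. The Ddc level at 7.5 mg/kg was 10.5, 8.62, 9.04, 7.84, 6.72, 9.83, 8.30, 8.68, 9.41 and 7.43 CPM. With 15 mg/kg it was 8.24, 8.08, 6.02, 9.64, 7.30, 10.1, 9.46, 8.42, 9.17 and 9.07 CPM. All 20 trapidil rats were below the levodopa mean of 11.1 ± 2.44 CPM (SD, n = 5), but several stood above the lowest levodopa rats, so the ranges overlapped. The means with trapidil were 8.63 ± 1.12 (n = 10) and 8.55 ± 1.22 CPM (n = 10).

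The log2 fold change of Ddc was -0.36 ± 0.12 (SE, interval -0.60 to -0.11) at 7.5 mg/kg, with an unadjusted p of 0.0056 and an edgeR adjusted p of 0.282. The Ddc value at 15 mg/kg was -0.37 ± 0.12 (interval -0.61 to -0.12), with an unadjusted p of 0.0045 and an adjusted p of 0.0891. Between the doses the Ddc value was -0.01 ± 0.10, so no step from the lower to the higher dose was resolved. For both doses together Ddc was at -0.36 ± 0.11 against levodopa (edgeR adjusted p = 0.0888). DESeq2 gave an adjusted p of 0.0428 for that contrast, and edgeR without the 7.5 mg/kg replicate 1 gave 0.0392. Without levodopa replicate 2, the rat at 15.1 CPM, the Ddc values were -0.22 at 7.5 mg/kg and -0.23 at 15 mg/kg, with adjusted p of 0.771 and 0.403. The size of the Ddc difference therefore leaned on 1 of the 5 reference animals, while its direction was kept without that animal.

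**Figure D2:**
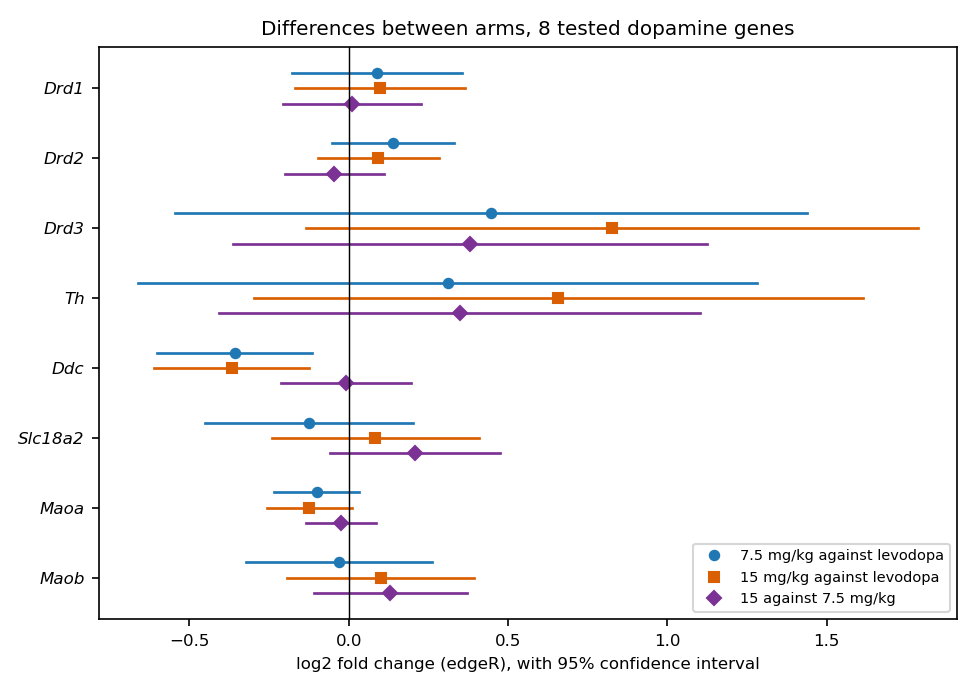
Log2 fold change of the 8 tested genes from edgeR on the horizontal axis with its 95% confidence interval, for each dose against levodopa and for the doses against each other, by gene on the vertical axis. Ddc is the gene whose intervals against levodopa leave out 0 (-0.60 to -0.11 and -0.61 to -0.12), though its adjusted p of 0.282 and 0.0891 did not pass 0.05; Drd3 and Th have the widest intervals.

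Ddc is also made by serotonin neurons and by cells of blood vessels, so those markers are given beside it, with those of other glia. The arm-centred Ddc level went with the pericyte list (r = 0.69, rho = 0.62; r = 0.45 and 0.69 within the arms of 10). It also went with the endothelial list (r = 0.66, rho = 0.56) and the astrocyte list (r = 0.64, rho = 0.50; r = 0.81 and 0.31 within those arms). With the oligodendrocyte list r was 0.53 and rho 0.39 (permutation, adjusted p = 0.151 for rho). Ddc went against the indirect pathway neuron list (r = -0.64, rho = -0.57, r = -0.29 and -0.64 within the arms of 10). With the direct pathway list r was -0.23 and rho -0.14. With the serotonin neuron list r was 0.37 and rho 0.38 (permutation, adjusted p = 0.143 and 0.164), and within the arms of 10 r was 0.63 and -0.17. Only Gata2 and Tph2 of that list passed the filter on low counts, so these values are not read as a relation with serotonin neurons. All 7 pericyte markers were detected, with summed levels of 131 to 270 CPM (levodopa), 124 to 185 CPM (7.5 mg/kg) and 124 to 171 CPM (15 mg/kg). Of 10 endothelial markers 8 were tested, Cldn5 being at 0 in every library, and they summed to 454 to 812, 376 to 545 and 380 to 467 CPM in the same order. At 15 mg/kg against levodopa 0 of 7 pericyte and 1 of 8 endothelial markers (Slco1a4, a transporter of brain endothelium) passed, all lower, beside the 1.31% of all genes. The medians of these lists were -0.30 and -0.38 on the log2 scale, beside -0.37 for Ddc and 0.001 for all genes.

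Glial markers were lower as well. Of 9 oligodendrocyte markers, genes of the myelin-forming cells, 5 passed at 15 mg/kg (Cnp, Ermn, Mal and Opalin among them), all lower, beside 1.31% of all genes. All 9 were lower at an unadjusted p under 0.05, beside 19.5% of all genes in either direction. The median log2 fold change of the list was -0.60, and its summed level ran from 10437 to 19029 CPM (levodopa), 7194 to 15824 CPM (7.5 mg/kg) and 6358 to 13430 CPM (15 mg/kg). Of 10 astrocyte markers none passed, beside the same 1.31%. All 10 had negative values, with a median of -0.18 and sums of 2883 to 5917, 2532 to 4318 and 2261 to 3742 CPM. Without levodopa replicate 2 none of the oligodendrocyte, endothelial, pericyte or astrocyte markers passed at 15 mg/kg, where 0.141% of all genes then did. With all libraries 9 of 9, 7 of 8, 4 of 7 and 4 of 10 were lower at an unadjusted p under 0.05, in the same order. That stood beside 19.5% of all genes in either direction. Without levodopa replicate 2 it was 8 of 9, 2 of 8, 1 of 7 and 0 of 10, a share not counted over all genes. In that fit the list medians were -0.50 (oligodendrocyte), -0.17 (endothelial), -0.15 (pericyte) and -0.05 (astrocyte), beside the -0.23 of Ddc. This alternative was added after the levels had been seen.

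Of 5 serotonin neuron markers all were detected, with summed levels of 9.60 to 16.3 CPM with levodopa, 6.72 to 11.6 CPM (7.5 mg/kg) and 5.79 to 9.95 CPM (15 mg/kg). Gata2 and Tph2, the 2 of them that were tested, did not pass at either dose (smallest edgeR adjusted p = 0.0792, Gata2 at 15 mg/kg). Both were lower at 15 mg/kg at an unadjusted p under 0.05, beside 19.5% of all genes in either direction. Without levodopa replicate 2 this held for 1 of the 2, a share not counted over all genes. The list median at 15 mg/kg was -0.50 (-0.34 without levodopa replicate 2), and at 7.5 mg/kg it was -0.39. The other markers were scarce: Slc6a4, the serotonin transporter, had 5, 5 and 11 reads in the whole arms, and Fev had 8, 5 and 13. The part of vessel, glial or serotonin cells in the Ddc level was not tested. Of 4 noradrenaline neuron markers none passed the filter on low counts, and Dbh, which makes noradrenaline from dopamine, had 3, 7 and 4 reads in the arms.

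Slc6a3, the dopamine transporter and a defining gene of dopamine neurons, was all but absent: 5 reads in 25 libraries. Levodopa replicate 4 had 1 read of Slc6a3, the 7.5 mg/kg replicates 2, 4 and 8 had 2, 1 and 1, and the 15 mg/kg rats had none. The sums of 1, 4 and 0 reads over the arms have exact 95% Poisson intervals of 0.0253 to 5.57, 1.09 to 10.2 and 0 to 3.69, which cover counting error only. Slc6a3 failed the filter on low counts and was not tested, and no fold is given since each arm lies at or near the floor. Of 12 markers of midbrain dopamine neurons, Lmx1b had no read in any library and Chrna6 had 2 reads in all. The list's summed level was 36.3 to 47.9 CPM with levodopa, 29.0 to 52.9 CPM (7.5 mg/kg) and 32.7 to 40.9 CPM (15 mg/kg). It was carried by the 3 genes that passed the filter: Slc10a4 (28.6 CPM with levodopa), which cholinergic neurons also make, Ret (8.38 CPM) and Nr4a2 (3.81 CPM). Without unlesioned tissue these levels say nothing of the lesion itself.

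Slc18a2, which loads dopamine and the other monoamines into vesicles, was read 35 to 190 times in each library. The levodopa rats had 5.23, 6.97, 6.98, 6.70 and 6.32 CPM of Slc18a2. At 7.5 mg/kg its lowest, median and highest levels were 3.21, 6.11 and 8.07 CPM, and at 15 mg/kg 5.18, 6.62 and 9.37 CPM. The levodopa rats lay together inside the spread of both trapidil arms, whose extremes were the 7.5 mg/kg replicates 1 (3.21 CPM) and 6 (3.70 CPM) below and the 15 mg/kg replicate 9 above. Its log2 fold change was -0.12 ± 0.16 (SE, interval -0.45 to 0.20, edgeR adjusted p = 0.780) at 7.5 mg/kg. The Slc18a2 value was 0.08 ± 0.16 (interval -0.24 to 0.41, adjusted p = 0.819) at 15 mg/kg. Between the doses it was 0.21 ± 0.13 (edgeR adjusted p = 0.999), with 9 of 10 rats at 15 mg/kg above the 7.5 mg/kg mean of log2 CPM. In CPM the 15 mg/kg replicates 4 (5.18) and 5 (5.74) both lay under the 7.5 mg/kg mean of 5.88.

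Maoa, the oxidase that acts on serotonin, noradrenaline and dopamine, was the steadiest member, with a coefficient of variation of 8.74% over all libraries. It stood at 44.9, 60.9, 51.7, 43.9 and 47.5 CPM in the levodopa rats. Its lowest, median and highest levels were 40.9, 46.4 and 52.4 CPM (7.5 mg/kg) and 43.5, 45.6 and 48.1 CPM (15 mg/kg). All 10 rats at 15 mg/kg were below the levodopa mean of 49.8 ± 6.90 CPM (SD, n = 5), which the 60.9 CPM of replicate 2 raised. The log2 fold change of Maoa was -0.10 ± 0.07 (SE, edgeR adjusted p = 0.552) at 7.5 mg/kg and -0.12 ± 0.07 (adjusted p = 0.298) at 15 mg/kg. Without levodopa replicate 2 the values were -0.02 and -0.04.

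Maob, the oxidase of astrocytes, ependymal cells and serotonin neurons, stood at 61.4, 128, 74.5, 94.4 and 66.5 CPM in the levodopa rats. Its lowest, median and highest levels were 51.8, 84.8 and 106 CPM (7.5 mg/kg) and 80.4, 90.8 and 106 CPM (15 mg/kg). The 15 mg/kg rats were the most alike (coefficient of variation 8.29%, against 31.8% with levodopa). The log2 fold change of Maob was -0.03 ± 0.14 (SE, interval -0.32 to 0.26, edgeR adjusted p = 0.948) at 7.5 mg/kg and 0.10 ± 0.14 (interval -0.19 to 0.39, adjusted p = 0.747) at 15 mg/kg. Levodopa replicate 2 was again the highest of all libraries. Without it the Maob values were 0.16 and 0.29, the second with an adjusted p of 0.349.

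The log2 ratio of Maoa to Maob reads was -0.73 ± 0.33 (SD, n = 5) with levodopa, -0.81 ± 0.34 (n = 10) at 7.5 mg/kg and -0.99 ± 0.15 (n = 10) at 15 mg/kg. It differed from levodopa by -0.08 at 7.5 mg/kg (two-sided exact permutation p = 0.645, adjusted p = 0.876). At 15 mg/kg the difference was -0.26 ± 0.15 (SE), with an exact permutation p of 0.0546 and an adjusted p of 0.328 over the 6 ratio tests. The doses differed by -0.18 (permutation p = 0.137, adjusted p = 0.411). As a difference of medians it was -0.42 at 7.5 mg/kg (exact permutation p = 0.178) and -0.45 at 15 mg/kg (exact permutation p = 0.0440, adjusted p = 0.264). With 1 library left out at a time, the differences of means ran from -0.18 to -0.014 and from -0.36 to -0.19. The levodopa rats fell into 3 between -0.53 and -0.45 and 2 at -1.10 and -1.07, and the latter lay within the 15 mg/kg range. None of the 3 differences passed after adjustment.

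**Figure D3:**
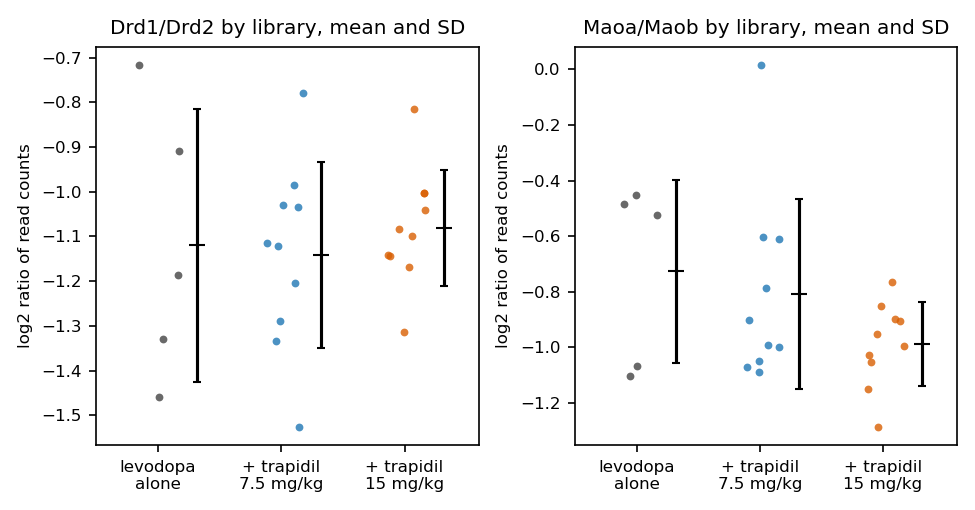
Log2 ratio of read counts in each library (points) with the mean and SD of each arm (bars), for Drd1 over Drd2 on the left and Maoa over Maob on the right, by arm on the horizontal axis. The Drd1/Drd2 means lie between -1.14 and -1.08; the Maoa/Maob means go from -0.73 with levodopa to -0.99 at 15 mg/kg with overlapping points.

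The rest of the pathway was read from a list of 42 further genes, of which 41 were in the table and 38 were tested. By edgeR 0 of 38 passed in each of the 4 comparisons, beside 0.0283%, 1.31%, 0.0283% and 0.806% of all genes. At an unadjusted p under 0.05 none was called at 7.5 mg/kg (11.7% of all genes), 3 higher and 3 lower at 15 mg/kg (19.5%), 1 lower between the doses (3.63%), and 2 higher and 3 lower for both doses together (18.1%). DESeq2 called 0, 2, 0 and 0 of them, beside 0.382%, 4.43%, 0.0424% and 3.01% of all genes. Limma-voom called 0, 4, 0 and 2, beside 0.721%, 5.06%, 0.0919% and 3.98%. The median log2 fold change of the list was 0.03 at 7.5 mg/kg, 0.03 at 15 mg/kg, -0.01 between the doses and 0.04 for both doses, beside medians of 0.004, 0.001, -0.002 and 0.002 over all tested genes.

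Of the remaining receptors, Drd4 had 3 reads with levodopa and none with trapidil and was not tested. Drd5, which like Drd1 raises cyclic AMP, was at 1.49 ± 0.433 (SD, n = 5), 1.62 ± 0.613 (n = 10) and 1.44 ± 0.447 CPM (n = 10). Of the 6 genes that make or recycle tetrahydrobiopterin, the cofactor of Th, 5 had negative fold changes at each dose against levodopa. Pts, the enzyme of the middle step of that synthesis, was at 7.21 ± 0.739 CPM with levodopa, 6.54 ± 0.443 CPM (7.5 mg/kg) and 5.81 ± 0.502 CPM (15 mg/kg). Its log2 fold change at 15 mg/kg was -0.31 ± 0.08 (SE, edgeR adjusted p = 0.0537), with 10 of 10 rats below the levodopa mean and overlapping ranges. The Pts value at 7.5 mg/kg was -0.14 ± 0.08 (adjusted p = 0.525), and between the doses -0.17 ± 0.07 (adjusted p = 0.999). DESeq2 called Pts at 15 mg/kg and limma-voom did not.

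Among the other transporters and breakdown enzymes, Aldh1a1, an aldehyde dehydrogenase that clears the aldehyde formed from dopamine by monoamine oxidase, had the smallest p. Its mean level was 17.4 ± 3.30 (SD, levodopa, n = 5), 13.3 ± 5.66 (7.5 mg/kg, n = 10) and 10.3 ± 2.42 CPM (15 mg/kg, n = 10). On the log2 scale Aldh1a1 differed from levodopa by -0.75 ± 0.21 (SE, edgeR adjusted p = 0.0634) at 15 mg/kg and -0.40 ± 0.21 (adjusted p = 0.467) at 7.5 mg/kg. DESeq2 and limma-voom both called Aldh1a1 at 15 mg/kg.

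Of 25 tested genes of signalling below the receptors, 18 had positive fold changes at 7.5 mg/kg and 19 at 15 mg/kg, beside about as many of either sign among all genes (7224 positive and 6918 negative at 7.5 mg/kg). The smallest p at 15 mg/kg belonged to Prkar2b, a regulatory subunit of the cyclic AMP dependent kinase, with a log2 fold change of 0.30 ± 0.10 (SE, edgeR adjusted p = 0.0990). Its level went from 145 ± 24.2 CPM with levodopa to 178 ± 18.6 CPM, with overlapping ranges. The smallest p at 7.5 mg/kg was that of Pde1b, a phosphodiesterase, at 0.19 ± 0.10 (adjusted p = 0.444). Of the markers of the cells that hold the receptors, 0 of 6 tested direct pathway and 0 of 6 indirect pathway neuron genes passed by edgeR at each dose, beside 0.0283% (7.5 mg/kg) and 1.31% (15 mg/kg) of all genes, shares at which lists of this size would hold few or none. Their summed levels were 462 to 884, 513 to 828 and 521 to 695 CPM (direct), and 3822 to 6855, 4853 to 6580 and 3776 to 6719 CPM (indirect), from levodopa to 15 mg/kg.

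Between animals some of the members varied together. Over the 28 pairs of tested members, arm-centred log2 CPM was correlated across the 25 libraries, with permutation p-values (100000 resamples, two-sided) adjusted over the 28 pairs. In 5 pairs Pearson's r had an adjusted p under 0.05, and in 2 of them Spearman's rho did too. Drd2 and Maob went in opposite directions, with r = -0.78 (permutation p = 1e-05, the smallest these resamples can give, adjusted p = 0.00028) and rho = -0.79 (adjusted p = 0.00056). Without the 2 libraries farthest from the Drd2 median r was -0.68, and within the arms it was -0.76 (7.5 mg/kg) and -0.57 (15 mg/kg). Drd1 and Ddc had r = -0.64 (permutation p = 0.00078, adjusted p = 0.00728) and rho = -0.65 (adjusted p = 0.0115). Their r was -0.46 without the 2 farthest libraries and -0.63 and -0.45 within the arms of 10.

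The other 3 pairs passed on r alone. Drd1 with Drd2 had r = 0.66 (permutation, adjusted p = 0.0171) and rho = 0.46 (adjusted p = 0.0945), with r of 0.37 without the 2 farthest libraries and of 0.16 and 0.57 within the arms of 10. Drd2 with Ddc had r = -0.54 (adjusted p = 0.0297) and rho = -0.46 (adjusted p = 0.0945), with r of 0.11 and -0.62 within the arms of 10. Slc18a2 with Maob had r = 0.66 (adjusted p = 0.00616) and rho = 0.51 (adjusted p = 0.0624), with r of 0.87 and 0.16 within those arms. The libraries are scaled to a common total, and the part of that scaling or of the tissue make-up in these pairs was not tested.

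**Figure D4:**
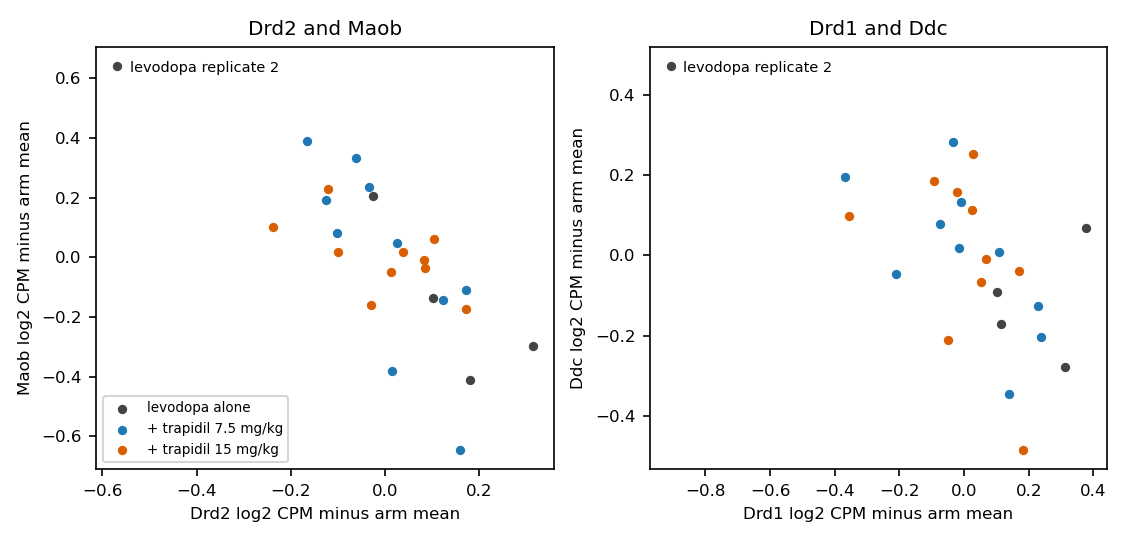
Arm-centred log2 CPM of Maob against Drd2 (left) and of Ddc against Drd1 (right), 1 point per library and coloured by arm. Both clouds slope downwards (r = -0.78 and r = -0.64 over 25 libraries), and levodopa replicate 2 lies at the upper left end of each.

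Against the marker lists of cell types, 64 relations were computed over the same libraries, a set chosen after the levels had been seen, and in 17 both r and rho had an adjusted p under 0.05. Maob went most closely with the ependymal list (r = 0.80, rho = 0.90, r = 0.89 and 0.76 within the arms of 10). It did not go with the astrocyte list (r = 0.00018, rho = -0.08, r = -0.68 and -0.004 within those arms). Nor did Maob go with the serotonin neuron list (r = 0.06, rho = -0.05, r = -0.54 and 0.23 within those arms). Drd2 went with the indirect pathway neuron list (r = 0.76, rho = 0.74) and against the ependymal list (r = -0.58, rho = -0.70). Drd1 went against the endothelial (r = -0.82, rho = -0.73) and astrocyte lists (r = -0.75, rho = -0.68) and with the direct pathway list (r = 0.59, rho = 0.52). Slc18a2 also went with the ependymal list (r = 0.61, rho = 0.56). Th, at 3 to 47 reads per library, went with the serotonin neuron list (r = 0.61, rho = 0.51, r = 0.41 and 0.75 within the arms of 10). Only Gata2 and Tph2 of that list passed the filter on low counts, so this is not read as a relation with serotonin neurons. These relations are across animals whose summed marker levels differed, and what moved them was not tested.

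For each tested member the genes most like it, 2 or 3 of which are named, were taken by Pearson's r of arm-centred log2 CPM over the 25 libraries, among the 12350 genes that averaged 1 CPM or more, and are given as a description. Drd1 was followed most closely by Spock3, a matrix proteoglycan (r = 0.97), and Nalcn, the sodium leak channel (r = 0.96). Drd2 was followed by Coro7, a coronin (r = 0.94), Mapk4, an atypical MAP kinase (r = 0.93), and Coro2b, another coronin (r = 0.92). Maob had neighbours as close: Gldc, the glycine decarboxylase (r = 0.94), Mxi1, a partner of Max (r = 0.93), and Aldh5a1, which breaks down the aldehyde made from GABA (r = 0.93). For these 3 members the lowest r of a gene named here was 0.84 without the 2 farthest libraries.

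The neighbours of the less abundantly read members were looser. Ddc was followed by Ppp1r3d, a glycogen-targeting subunit of protein phosphatase (r = 0.83), Nacc2 (r = 0.82) and Slc27a1, a fatty acid transporter (r = 0.81). Slc18a2 was followed by St6galnac5, a sialyltransferase (r = 0.84), and Hltf (r = 0.83). Drd3 was followed by Rps6ka6, a ribosomal S6 kinase (r = 0.81), Egfr, the EGF receptor (r = 0.78), and Ctps2 (r = 0.76). For Th the nearest were Chmp2a (r = 0.73), Psmb10 and As3mt (both r = 0.69). For Maoa they were Bgn, Acad11 and Cyp4v3 (all r = 0.73), whose r fell to 0.53, 0.59 and 0.47 without the 2 farthest libraries. None of these genes was on the marker or pathway lists.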

How the data were processed

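Polyadenylated RNA of 25 striata, 1 library each, was sequenced. Raw read counts per gene were deposited by the authors as 1 table; FastQC, STAR and HTSeq on Rnor_6.0 are named in the submitters' processing notes. Versions, annotation release and strand setting are not given in the sources used here, so reads of overlapping antisense genes cannot be told apart. The arm of each library came from its title. The labels describe randomised rats but do not tie each library to one; if 2 shared a rat, p-values would measure technical spread. No pair within an arm agreed within sampling noise (lowest chi-square per degree of freedom 4.83).

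From the counts, edgeR 4.0.16 (R 4.3.3) kept 14142 genes by filterByExpr, scaled libraries by TMM and fitted arm as the 1 factor in its quasi-likelihood test over all 25 libraries (common biological coefficient of variation 0.139). Two-sided p-values were adjusted by Benjamini-Hochberg over the 14142 genes, with a threshold of 0.05. The script was tested on simulated data. A standard error is the log2 fold change divided by the root of F. Log2 CPM for correlations used a prior count of 2. Ratios were compared by permutation tests (SciPy 1.17.1). DESeq2 1.42.0, limma 3.58.1 (voom), other normalizations, no filter, a threshold of 0.10, 2 arms alone, a replicate block, 4 region scores and leaving libraries out were alternatives. Named genes were all 9 members and, of each other list, called genes (up to 4) or the gene with the smallest p; list members outside that rule (Drd4, Drd5 and markers near 0) were named after their values were seen. The members, lists and doubted libraries were chosen with earlier results of these data known. Of the 3 genes most like a member, some are not reported here. No gene lengths were used, so levels are not compared between genes. No batch or date was given, which leaves within-batch values out of reach.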

Additional observations from a re-analysis of the deposited data

Results flagged for a closer look

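In 30 groups of 5 or 10 libraries (a member's level or a ratio in 1 arm), 2 had a library far from the rest by Dixon's criterion, where chance gives about 5% of groups. Slc18a2 was at 9.37 CPM in the 15 mg/kg replicate 9, with the next library at 7.41 CPM. The log2 ratio of Maoa to Maob was 0.015 in the 7.5 mg/kg replicate 1, the shallowest library, with the next at -0.60. That library also had the lowest Maob level of all (51.8 CPM) and the lowest Slc18a2 level (3.21 CPM).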

How the results depend on the processing

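Of 309 values of single members under alternatives that leave out no single library, 282 kept their direction and side of the threshold, 3 became called and 24 reversed; of 96 counts and ratios 86 held, 8 moved and 2 reversed. The cause was not tested for any of these. The threshold of 0.10 reuses the main fit, so no direction could change there. DESeq2 values without an adjusted p were counted as not called. As no member was called in the main fit, the 282 are a weak measure of stability. At a threshold of 0.10, Ddc was the 1 member called at 15 mg/kg and for both doses, and 3 pathway genes were called at 15 mg/kg (Aldh1a1, Prkar2b, Pts). With only the 2 arms in the fit 1 pathway gene (Aldh1a1) was called at 15 mg/kg, and Drd3 was not tested. The share of all genes called at 0.10 or with only 2 arms is not given here. Those counts are therefore not read as a result about these genes. In the main fit 1.31% of all genes passed at 15 mg/kg and 0.806% for both doses. DESeq2 called 2 pathway genes at 15 mg/kg and 1 member, Ddc, for both doses (-0.36, adjusted p = 0.0428). Limma-voom called 4 pathway genes at 15 mg/kg and 2 for both doses.

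Limma-voom reversed Drd1 (-0.0076 at 7.5 mg/kg, -0.023 at 15 mg/kg, -0.015 between the doses and for both), Maob at 7.5 mg/kg (0.23), Ddc between the doses (0.048) and Slc18a2 for both (0.041). Without levodopa replicate 2 and replicate 1 of 7.5 mg/kg, both absent at once, Drd1 (-0.071, -0.066 and -0.069 at 7.5 mg/kg, 15 mg/kg and for both), Maob at 7.5 mg/kg (0.22), Drd2 at 15 mg/kg (-0.022) and for both (-0.0083), Ddc between the doses (0.022) and Slc18a2 for both (0.043) reversed. In that fit Ddc stood at -0.25, -0.23 and -0.24 (7.5 mg/kg, 15 mg/kg, both doses; adjusted p = 0.419, 0.317 and 0.266). With 4 region scores in the design Slc18a2 (-0.25) and Maob (-0.22) reversed at 15 mg/kg, Maob for both (-0.24), and Drd1 (-0.044), Drd2 (0.0064), Ddc (0.00041) and Maoa (0.0056) between the doses. The difference of medians reversed the Drd1/Drd2 ratio at 7.5 mg/kg (0.068).

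Replicate numbers did not pair the libraries: same-numbered libraries of different arms correlated at -0.35 to 0.21 (20 pairs, 6 over 0.1) and 2 of 25 libraries correlated best with their own number. The replicate block left 0 members called in all 4 comparisons; Ddc was at -0.42, -0.43, -0.01 and -0.42 (adjusted p = 0.353, 0.183, 1.00 and 0.182), and Slc18a2 at 15 mg/kg (-0.054), Maob for both (-0.052) and Maoa/Maob at 7.5 mg/kg (0.072) reversed.

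Leaving out 1 library at a time gave the following ranges. At 7.5 mg/kg Drd1 ran from -0.076 to 0.18, Maob from -0.13 to 0.16 and the Drd1/Drd2 ratio from -0.11 to 0.079. At 15 mg/kg Drd1 ran from -0.066 to 0.19, Drd2 from -0.022 to 0.18, the Drd1/Drd2 ratio from -0.046 to 0.14 and called pathway genes from 0 to 3 (3 without replicate 4 of levodopa or of 15 mg/kg, 2 without replicate 1 or 6 of 7.5 mg/kg). Between the doses Drd1 ran from -0.026 to 0.045 and Ddc from -0.044 to 0.036. For both doses called members and called pathway genes each ran from 0 to 1 (1 without the 7.5 mg/kg replicate 1), Drd1 from -0.071 to 0.18, Slc18a2 from -0.087 to 0.012 and Maob from -0.062 to 0.23. The share of all genes called in each of these fits is not given here, so the counts of called genes are a description only. Depth limits Drd3, Th and Slc6a3, whose reads per library reach down to 2, 3 and 0.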
